A study of Mus musculus with 16 samples.

Results

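The genes described here encode the enzymes that build fatty acids from citrate and then lengthen and desaturate them: Acly, Acaca, Acacb, Fasn, Scd1, Scd2, Elovl5, Elovl6, Fads1 and Fads2. They were picked by gene name from the pathway, not by a threshold on measured values, and make up 10 of the 21497 genes in the count table of the SREBP2 experiment and 10 of the 22001 genes in that of the IRF7 experiment. The study asked how SREBP2 and IRF7 act in osteoclast formation. Bone marrow-derived macrophages (BMMs), the precursors that form osteoclasts in culture, were grown for 3 days with macrophage colony-stimulating factor (M-CSF, 23.3 ng/mL) alone or with M-CSF and the osteoclast-inducing cytokine RANKL (40 ng/mL), and their RNA was sequenced. The RANKL concentration is that of the labels. The text of the study gives a higher one for mouse cultures, and which was used for these libraries is not known here. There were 8 groups with 2 libraries each, described by the submitters as biological replicates.

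In the SREBP2 experiment all cells came from female mice carrying the Cre recombinase LysM-Cre, which is active in myeloid cells. SREBP2ΔM cells had floxed Srebp2 alleles as well, and control cells came from littermates with unaltered Srebp2. In the IRF7 experiment, BMMs of female mice that lacked IRF7 in every cell were compared with those of C57BL/6 wild-type (WT) mice, and the labels name no Cre. The labels used here give no age for the donor mice. The labels did not say whether each library came from a separate mouse, so p-values measure the spread between these libraries only.

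Fatty acid synthesis in the cytosol starts with ATP citrate lyase (Acly), which splits citrate into acetyl-CoA and oxaloacetate. The acetyl-CoA carboxylases (Acaca, Acacb) turn acetyl-CoA into malonyl-CoA, fatty acid synthase (Fasn) joins these units into palmitate, ELOVL enzymes add further carbons, and the desaturases insert double bonds. SREBP1 and the sterol-sensing liver X receptors (LXRs) are known drivers of these genes, whereas SREBP2, encoded by Srebf2, is best known for driving cholesterol synthesis. In macrophages and osteoclasts, fatty acids go into membrane phospholipids, neutral lipid stores and signalling lipids.

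Libraries held between 7703178 and 13387849 counts in the SREBP2 experiment and between 8178505 and 12746916 in the IRF7 experiment. Levels are given as CPM, the counts of a gene relative to the library total after TMM scaling, and each experiment was scaled separately. The labels were checked with the targeted genes: Srebf2 had 8 and 9 counts in SREBP2ΔM cells with M-CSF and 6 and 1 with RANKL, against 233 to 281 CPM in the control libraries. Irf7 had 11 and 3 counts in IRF7-deficient cells with M-CSF and 23 and 6 with RANKL, against 43.3 to 80.8 CPM in WT cells. All 10 osteoclast markers examined had a row in both tables, and their summed level was 81.3 to 149 CPM with M-CSF and 32005 to 77025 CPM with RANKL. Calcr, the calcitonin receptor of mature osteoclasts, was at 0 in all M-CSF libraries. The 7 macrophage markers summed to 5413 to 6088 CPM over both treatments of the SREBP2 experiment, but single markers changed in opposite directions. Cd68 was at 1047 to 1249 CPM with M-CSF and 2136 to 2592 CPM with RANKL. Adgre1 was at 999 to 1250 CPM with M-CSF and 497 to 764 CPM with RANKL. Fcgr1, Cd14 and Mertk were also lower with RANKL, whereas Csf1r and Lyz2 overlapped between treatments. In the IRF7 experiment the 7 markers summed to 25708 to 35420 CPM with M-CSF and 6120 to 7887 CPM with RANKL. Much of that difference was Lyz2, the gene into which LysM-Cre is inserted, at 21.2 to 30.7 CPM in the M-CSF libraries of the SREBP2 experiment and 20049 to 29377 CPM in those of the IRF7 experiment. Markers of neutrophils (9 genes) summed to 70.1 to 1269 CPM with M-CSF and 4.87 to 20.3 CPM with RANKL. The 6 stromal markers summed to at most 9.86 CPM, and none of the 6 adipocyte markers had a value in either table.

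Of the 10 genes, 9 passed the submitters' filter on low values in the SREBP2 experiment, which kept 10764 genes, and all 10 passed in the IRF7 experiment, which kept 10788. The gene that did not pass was Acacb, the carboxylase of the outer mitochondrial membrane whose malonyl-CoA restrains fatty acid oxidation. On the mouse genome build mm10, Acly lies on chromosome 11 at 100476353 to 100528000, Fasn on chromosome 11 at 120805846 to 120824547 and Elovl6 on chromosome 3 at 129532355 to 129638495. The desaturase genes lie on chromosome 19, with Fads2 at 10064164 to 10101503 and Fads1 at 10182888 to 10196870 in one cluster, and Scd2 at 44293676 to 44306864 and Scd1 at 44394451 to 44407709 in another. Acaca is on chromosome 11 (84129672 to 84401651), Acacb on chromosome 5 (114146535 to 114250761) and Elovl5 on chromosome 9 (77917364 to 77984519). Counts are given per gene, and how reads were assigned to genes was not given in the sources used here.

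Sequence shared with other genes limits some of these counts. Of the 50-base stretches of Acaca transcripts, 30.4% also occurred elsewhere, mostly in the pseudogene Gm5182, so Acaca levels are uncertain. For Scd1 the share was 4.56% and for Scd2 3.97%, held in common with each other and with Scd3 and Scd4. It was 3.98% for Elovl6 and 0.152% for Fads2, and no stretch of Acly, Acacb, Fasn, Elovl5 or Fads1 was shared. Elovl6 also overlaps the antisense gene Gm35986 by 34 exon bases, and whether counting used strand was not given in the sources used here.

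Upstream sequences are shown for a pair of genes whose RANKL responses differed, Fasn, which fell, and Acly, which did not fall. Each is the 250 bases before the RefSeq start of the gene on GRCm38.p6, on the gene's own strand, with motif matches in capitals. The Fasn window is chr11:120824548-120824797 (minus strand) and the Acly window chr11:100528001-100528250 (minus strand).
Fasn: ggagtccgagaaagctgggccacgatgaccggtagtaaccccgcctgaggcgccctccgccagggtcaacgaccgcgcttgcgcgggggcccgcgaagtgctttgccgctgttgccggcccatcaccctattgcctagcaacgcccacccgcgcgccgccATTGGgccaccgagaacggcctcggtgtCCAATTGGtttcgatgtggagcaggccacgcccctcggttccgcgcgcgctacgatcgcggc
Acly: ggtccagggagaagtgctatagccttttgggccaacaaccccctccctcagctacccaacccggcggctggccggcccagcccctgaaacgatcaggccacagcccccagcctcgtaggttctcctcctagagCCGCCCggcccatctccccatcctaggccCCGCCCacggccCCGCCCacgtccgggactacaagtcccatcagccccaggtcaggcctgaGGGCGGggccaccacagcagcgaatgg
Capitals in the Fasn window mark CCAAT boxes (CCAAT on either strand, 3 matches, of which the last 2 overlap in CCAATTGG), and capitals in the Acly window mark GC boxes (GGGCGG on either strand, 4 matches). Of 32851 promoters of this length, 33.8% held a CCAAT box and 32.7% a GC box. Promoters of 7 of the 10 genes were matched by symbol and searched on both strands. None of the 7 held the full sterol regulatory element (0.0731% of all promoters), its relaxed form TCACNCCAC (1.05%) or the direct repeat bound by LXR (0.0152%). The E-box CACGTG (6.02%) was found in Elovl5 only. Fads2, which fell with RANKL, held a GC box and no CCAAT box. Elovl5, not called with RANKL, and Acacb held CCAAT boxes and no GC box. Acaca and Elovl6 held neither. Scd1, Scd2 and Fads1 were not matched. The Acaca and Acacb windows lie before RefSeq starts inside the genes as the count tables define them, not before the first exon. A match or its lack describes these letters only, not binding.

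In macrophages grown with M-CSF, Acly was the most abundant of these messages per length in 3 of the 4 genotypes. In LysM-Cre control cells its mean level was 49.6 ± 3.09 CPM per kilobase of exon (SD, n = 2), followed by Fads1, the delta-5 desaturase of long polyunsaturated fatty acids, at 38.1 ± 2.19. Elovl5, which elongates polyunsaturated fatty acids, stood at 24.4 ± 0.277. Fads2 (19.5 ± 4.54), Fasn (15.7 ± 3.13) and Scd2 (14.9 ± 7.07) came next and lay within each other's spread in CPM per kilobase. Elovl6, which elongates palmitate to stearate, was at 4.27 ± 0.0285, Acaca at 2.61 ± 0.136, Scd1 at 0.598 ± 0.321 and Acacb at 0.0654 ± 0.0115 CPM per kilobase. In SREBP2ΔM cells Fads1 (49.9 CPM per kilobase) stood above Acly (41.1).

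With RANKL the order changed, and Acly, Scd2 and Elovl5 held the top 3 places per length in all 4 genotypes. In control cells the levels per kilobase were 63.3 ± 7.73 for Acly, 36.2 ± 19.5 for Scd2 and 20.1 ± 0.760 for Elovl5. Fads1 followed at 8.46 ± 1.68 and Fasn at 5.29 ± 0.437 CPM per kilobase. Fads2, in place 4 with M-CSF, was in place 8 at 0.816 ± 0.259 and within the spread of Elovl6 at 0.824 ± 0.118. The SD of Scd2 was large, as its RANKL libraries differed more from each other than those of the other abundant members.

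**Figure D1:**
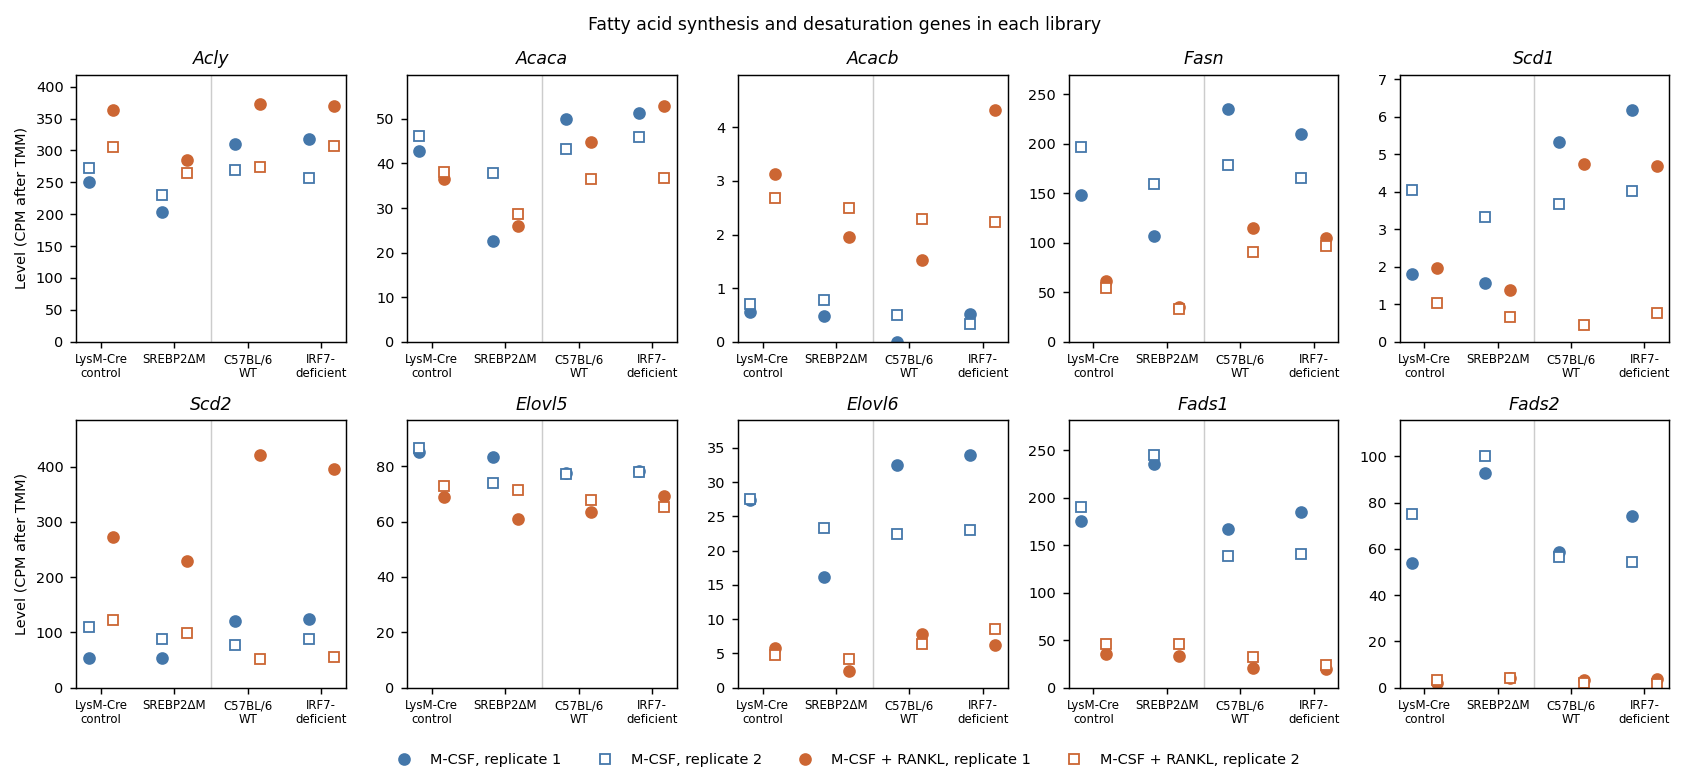
CPM (vertical axes, linear scale from 0) of each of the 10 genes in the 16 libraries, by genotype and treatment (horizontal axes), 1 point per library. Fads2 lay between 53.8 and 100.1 CPM with M-CSF and between 1.55 and 4.33 CPM with RANKL, whereas the RANKL libraries of Scd2 spread from 51.7 to 421 CPM.

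Comparing RANKL with M-CSF asked how message levels differed between macrophage and osteoclast cultures. Fads2, Fads1, Elovl6 and Fasn fell with RANKL in all 4 genotypes, Fads2 by the most, to 1 part in 22.7 to 24.8 of its M-CSF level. Acly was called slightly higher in both genotypes of the SREBP2 experiment, but in neither when only the compared groups were fitted. Acacb was called higher in both genotypes of the IRF7 experiment, where 1 RANKL library alone brought it past the filter. Acaca, Elovl5, Scd1 and Scd2 did not pass the test in any genotype. In bulk RNA, fewer cells of a type and less RNA per cell cannot be told apart.

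A gene was called at an adjusted p under 0.05 by the quasi-likelihood test of edgeR. Adjustment was by Benjamini-Hochberg over all genes kept in that experiment, and every adjusted p comes from this test. In LysM-Cre control cells 1 of the 9 members tested was called higher and 4 lower, where 57.7% of all genes were called, 29.0% higher and 28.6% lower. In SREBP2ΔM cells the count was also 1 higher and 4 lower of 9, beside 56.2% of all genes called (28.6% higher, 27.6% lower). In WT cells 1 of 10, Acacb, was called higher and 4 lower, beside 47.4% (24.9% higher, 22.5% lower). In IRF7-deficient cells 1 of 10, again Acacb, was called higher and 4 lower, beside 49.3% (25.8% higher, 23.5% lower). The number of members called was thus near that of genes at large in each genotype. In WT and IRF7-deficient cells that number included Acacb, which was tested only because 1 RANKL library brought it past the filter. More of them were called lower than higher. The members' median log2 fold change was -0.98, -1.28, -0.58 and -0.56 in the same order, with the median of all genes within 0.0109 of 0. DESeq2 called the same 5 members in each genotype. By the looser rule of an unadjusted p under 0.05 and a fold over 1.5, 4 members were lower in each genotype, beside 22.8%, 22.7%, 19.0% and 19.6% of all genes. By that rule 0, 0, 1 and 1 were higher, again Acacb, beside 24.2%, 24.0%, 21.4% and 22.0%.

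**Figure D2:**
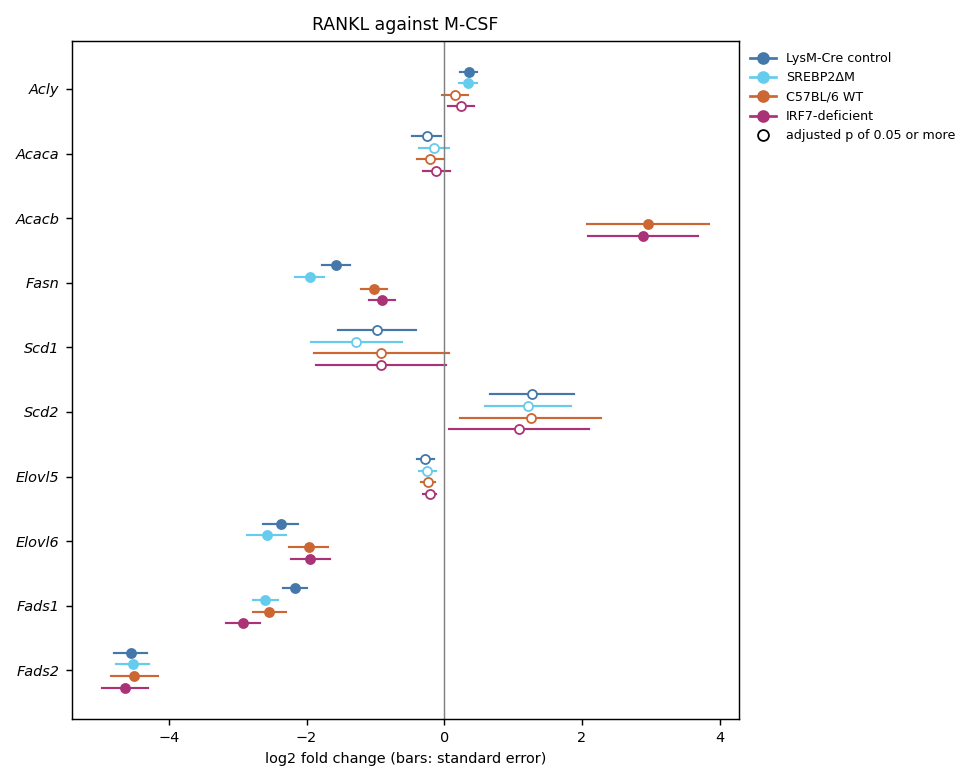
log2 fold change of RANKL against M-CSF (horizontal axis) with its SE for each member in the 4 genotypes, filled points being called at an adjusted p under 0.05. Fads2 lies between -4.63 and -4.50 and the other 3 genes called lower between -2.92 and -0.90 in every genotype.

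Fads2 encodes the delta-6 desaturase, the entry step from linoleic and alpha-linolenic acid to long polyunsaturated fatty acids. Its level with M-CSF was 53.8 and 74.9 CPM in LysM-Cre control cells, and with RANKL it was 2.08 and 3.29 CPM. In SREBP2ΔM cells it was 92.7 and 100.1 CPM with M-CSF and 4.04 and 4.33 CPM with RANKL. All RANKL libraries of this experiment were far below all M-CSF libraries, and the same held in the IRF7 experiment. There, WT cells had 58.4 and 56.5 CPM with M-CSF and 3.07 and 2.14 CPM with RANKL, and IRF7-deficient cells 74.4 and 54.5 CPM and 3.67 and 1.55 CPM. The log2 fold change of Fads2 was -4.56 (SE 0.24, adjusted p = 1.8e-06) in control, -4.52 (SE 0.24, adjusted p = 1.9e-06) in SREBP2ΔM, -4.50 (SE 0.34, adjusted p = 4.1e-05) in WT and -4.63 (SE 0.33, adjusted p = 3.0e-05) in IRF7-deficient cells. Ordered from the most negative change, Fads2 was in place 45 of the 10764 genes in control cells and in place 64 of the 10788 in WT cells. Without replicate 1 of the IRF7-deficient RANKL group, the change in those cells was -5.37, and without replicate 2 it was -4.13.

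Fads1, whose product acts after FADS2 in the same route, was the most abundant desaturase per length with M-CSF in LysM-Cre control cells. It had 176 and 191 CPM with M-CSF and 35.0 and 46.4 CPM with RANKL in control cells, and 236 and 245 CPM against 33.4 and 45.8 CPM in SREBP2ΔM cells. In WT cells it had 168 and 138 CPM against 20.3 and 31.8 CPM, and in IRF7-deficient cells 185 and 141 CPM against 19.5 and 23.6 CPM. No RANKL library reached any M-CSF library. The log2 fold change of Fads1 was -2.17 (SE 0.18, adjusted p = 1.8e-05), -2.60 (SE 0.18, adjusted p = 7.9e-06), -2.54 (SE 0.24, adjusted p = 1.1e-04) and -2.92 (SE 0.25, adjusted p = 6.0e-05) in control, SREBP2ΔM, WT and IRF7-deficient cells.

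Elovl6 had 27.3 and 27.6 CPM with M-CSF and 5.83 and 4.76 CPM with RANKL in control cells, and 16.1 and 23.3 CPM against 2.37 and 4.20 CPM in SREBP2ΔM cells. It had 32.5 and 22.5 CPM against 7.80 and 6.35 CPM in WT cells and 33.9 and 23.1 CPM against 6.15 and 8.62 CPM in IRF7-deficient cells. The groups did not overlap in any genotype. The log2 fold changes of Elovl6 were -2.38 (SE 0.26, adjusted p = 7.7e-05), -2.58 (SE 0.29, adjusted p = 1.0e-04), -1.97 (SE 0.29, adjusted p = 9.1e-04) and -1.95 (SE 0.28, adjusted p = 8.7e-04) in the same order.

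Fasn, the multienzyme that makes palmitate, had 148 and 197 CPM with M-CSF and 61.2 and 54.5 CPM with RANKL in control cells. In SREBP2ΔM cells the levels were 106 and 159 CPM against 34.9 and 33.4 CPM. In WT cells they were 235 and 179 CPM against 114 and 90.8 CPM, and in IRF7-deficient cells 210 and 166 CPM against 105 and 96.3 CPM. Each RANKL library was below each M-CSF library of its genotype. The log2 fold change of Fasn was -1.57 (SE 0.21, adjusted p = 2.7e-04) in control, -1.96 (SE 0.22, adjusted p = 1.1e-04) in SREBP2ΔM, -1.01 (SE 0.19, adjusted p = 0.00314) in WT and -0.90 (SE 0.19, adjusted p = 0.00521) in IRF7-deficient cells. The calls of Fads2, Fads1, Elovl6 and Fasn held in all alternatives run, including each left-out library.

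Acly had 250 and 273 CPM with M-CSF and 363 and 305 CPM with RANKL in control cells, and 204 and 230 CPM against 286 and 265 CPM in SREBP2ΔM cells. The RANKL libraries were above the M-CSF libraries in both genotypes. The log2 fold change was 0.35 (SE 0.13, adjusted p = 0.0387) in control and 0.34 (SE 0.13, adjusted p = 0.0443) in SREBP2ΔM cells. The control call was lost without either M-CSF library (adjusted p = 0.172 and 0.0679) or without RANKL replicate 1 (0.248), and the SREBP2ΔM call without any 1 of its 4 libraries (0.0523 to 0.207). In a fit of those 2 groups alone, the adjusted p was 0.0583 and 0.0637. In WT cells Acly had 310 and 270 CPM against 373 and 274 CPM (log2 fold change 0.15, adjusted p = 0.534), and in IRF7-deficient cells 318 and 256 CPM against 370 and 307 CPM (0.24, adjusted p = 0.335). The groups overlapped in both.

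Acacb exceeded the filter value of 3 CPM in only 1 library of the IRF7 experiment, RANKL replicate 1 of the IRF7-deficient group, so it was tested because it was high there and its calls are descriptions. It was close to the limit of detection with M-CSF, at 0 and 6 counts in WT cells and 6 and 3 counts in IRF7-deficient cells. With RANKL it had 12 and 30 counts in WT and 47 and 26 counts in IRF7-deficient cells, at 1.53 and 2.30 CPM and 4.32 and 2.24 CPM. Both RANKL libraries were above both M-CSF libraries in each genotype. The fitted log2 fold change was 2.96 (SE 0.88, adjusted p = 0.0261) in WT and 2.89 (SE 0.79, adjusted p = 0.0180) in IRF7-deficient cells. Without WT M-CSF replicate 1, the library with 0 counts, the WT value was 1.97 (adjusted p = 0.0784), without M-CSF replicate 2 it was 7.43, and without RANKL replicate 2 it was 2.61 (adjusted p = 0.107). Without M-CSF replicate 1, M-CSF replicate 2 or RANKL replicate 1, the call in IRF7-deficient cells was lost as well (adjusted p = 0.0741, 0.0962 and 0.0771). In the SREBP2 experiment, where Acacb was below the filter, control cells had 7 and 10 counts with M-CSF and 30 and 31 with RANKL, and SREBP2ΔM cells 4 and 8 counts against 14 and 19. Its fitted log2 fold change there, with no filter, was 2.16 and 1.77.

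Scd2, a stearoyl-CoA desaturase that makes monounsaturated fatty acids, differed widely between replicates with RANKL. With RANKL it had 273 and 122 CPM in control, 229 and 99.6 CPM in SREBP2ΔM, 421 and 51.7 CPM in WT and 395 and 56.0 CPM in IRF7-deficient cells. Replicate 1 was higher than replicate 2 in each genotype, by 2.23, 2.30, 8.14 and 7.05 times. With M-CSF the levels were 54.1 and 109, 54.1 and 87.2, 121 and 76.2, and 124 and 88.5 CPM in the same order, so that in the IRF7 experiment 1 RANKL library was above and 1 below the M-CSF libraries. The log2 fold changes were 1.28 (adjusted p = 0.126), 1.21 (0.148), 1.25 (0.348) and 1.08 (0.415). Without RANKL replicate 1 the value was -0.93 in WT and -0.92 in IRF7-deficient cells. The summed osteoclast markers were also higher in RANKL replicate 1 than in replicate 2, by 1.13, 1.18, 1.78 and 1.48 times, and Insig1, a sterol-regulated gene of the SREBP system, by 1.40, 1.09, 2.11 and 1.67 times. Their part in the Scd2 difference was not tested.

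Scd1, the major desaturase of liver and fat, was scarce, with 5 to 71 counts per library. With M-CSF it had 1.81 and 4.04 CPM in control, 1.57 and 3.32 CPM in SREBP2ΔM, 5.31 and 3.68 CPM in WT and 6.19 and 4.01 CPM in IRF7-deficient cells. With RANKL it had 1.98 and 1.04, 1.39 and 0.656, 4.73 and 0.459, and 4.68 and 0.776 CPM. As with Scd2, RANKL replicate 1 was the higher library in each genotype. The log2 fold changes of -0.98, -1.28, -0.92 and -0.92 did not pass the test (adjusted p = 0.173, 0.132, 0.473 and 0.459), and without WT RANKL replicate 2 the WT value was 0.07. Per length, Scd2 was 17.9 to 30.9 times as abundant as Scd1 with M-CSF and 64.7 to 147 times with RANKL. Whether reads of Scd2 were counted for Scd1 was not tested.

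Acaca, the cytosolic carboxylase that commits acetyl-CoA to fatty acid synthesis, lay between 22.5 and 53.0 CPM in all 16 libraries, and Elovl5 between 61.1 and 86.6 CPM. Elovl5 libraries with RANKL were below those with M-CSF in each genotype, 69.1 and 72.8 against 85.2 and 86.6 CPM in control cells, but its log2 fold changes of -0.28, -0.25, -0.24 and -0.21 did not pass (adjusted p = 0.0840, 0.124, 0.0805 and 0.106). For Acaca the values were -0.26, -0.15, -0.20 and -0.12 (adjusted p = 0.322, 0.596, 0.418 and 0.645). Groups did not overlap for 8 of 9 members in control and SREBP2ΔM cells and for 6 of 10 in WT and IRF7-deficient cells, where the share among all genes was 80.8%, 78.7%, 75.3% and 76.1%.

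Fads1 and Fads2 are neighbours, and the third gene of the cluster, Fads3, fell too. Fads3 had 9.93 and 12.3 CPM with M-CSF and 0.625 and 1.04 CPM with RANKL in control cells, with log2 fold changes of -3.70, -3.15, -3.29 and -3.72 across the genotypes. Of the 7 other genes tested that start within 250 kb of the Fads2 start, Fads3 included, 6 were called lower in control and SREBP2ΔM cells and 5 in WT and IRF7-deficient cells, and none was called higher. The shares of all genes called lower were 28.6%, 27.6%, 22.5% and 23.5%. The genes called lower included Rab3il1, a Rab exchange factor (-2.18 to -4.19), and Fth1, the ferritin heavy chain (-1.49 to -2.40). Incenp, a cell division gene, and Fen1 were also among them. Tmem258, which starts next to Fen1, was above 0 and not called in any genotype (0.16 to 0.37). These genes were chosen by position, and no test of the region as a whole was made.

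**Figure D3:**
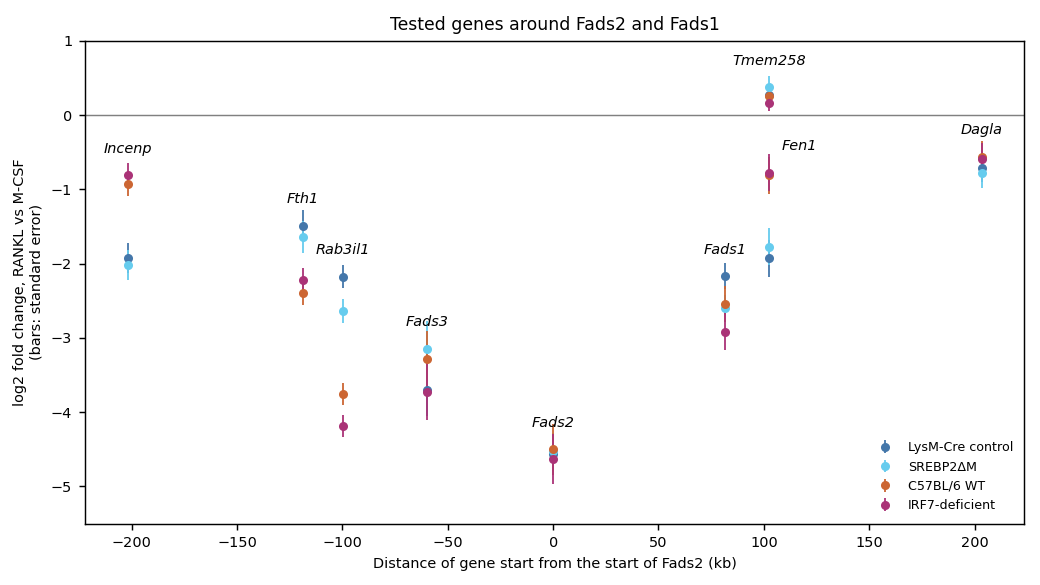
log2 fold change of RANKL against M-CSF (vertical axis) of the 9 genes tested within 250 kb of the Fads2 start, by distance of their start sites in kb (horizontal axis), in the 4 genotypes. Fads2 is lowest in every genotype and Tmem258 is the only gene above 0.

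Genes that act around these enzymes gave mixed results with RANKL, where the shares of all genes called higher and lower were 29.0% and 28.6% in control, 28.6% and 27.6% in SREBP2ΔM, 24.9% and 22.5% in WT and 25.8% and 23.5% in IRF7-deficient cells. Of 17 regulators of fatty acid synthesis tested, 6 were called higher and 2 lower in control cells, 8 and 3 in SREBP2ΔM, and 5 and 1 in both WT and IRF7-deficient cells. In control cells they included Nr1h3, which encodes LXR-alpha (log2 fold change 1.98), Prkag2, a subunit of the energy sensor AMPK (2.18), Mid1ip1, which promotes polymerization of acetyl-CoA carboxylase (1.37), and Mbtps1, the site-1 protease that cuts SREBPs (0.72). Srebf1, which encodes SREBP1, was not called in any genotype and had a log2 fold change of 0.32 (adjusted p = 0.0734) in control cells. Of 10 genes that supply citrate, acetyl-CoA and NADPH, 2 were called higher and 5 lower in control cells, 2 and 5 in SREBP2ΔM, 1 and 6 in WT and 1 and 4 in IRF7-deficient cells. Citrate synthase (Cs) rose by 1.66 on the log2 scale in control cells, whereas the NADPH-forming pentose phosphate enzymes G6pdx (-1.59) and Pgd (-0.88) fell.

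Of 13 other elongation and desaturation genes, 6 were called lower in each genotype and 4, 2, 2 and 4 higher in control, SREBP2ΔM, WT and IRF7-deficient cells. Hacd2 (-1.73) and Hsd17b12 (-0.84), whose products complete the elongation cycle after the ELOVL step, fell in control cells, and Elovl1 (0.65), an elongase of saturated very long chains, rose. Of 20 genes tested that pass acyl-CoA into glycerolipids, 9 were called higher and 6 lower in control cells, and 9 and 4 in SREBP2ΔM. The count was 5 higher and 5 lower of 21 in both WT and IRF7-deficient cells. Of all genes, 29.0%, 28.6%, 24.9% and 25.8% were called higher in control, SREBP2ΔM, WT and IRF7-deficient cells. The shares called lower were 28.6%, 27.6%, 22.5% and 23.5%. Lpcat1, a lysophosphatidylcholine acyltransferase (2.72), Lpin1, a phosphatidate phosphatase (2.60), Agpat4 (1.77) and Acsl1, a long-chain acyl-CoA synthetase (1.18), rose in control cells.

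Fatty acid synthesis in mitochondria uses separate enzymes, which make the precursor of lipoic acid among other products. Of 6 such genes tested, 6, 5, 6 and 5 were called higher in control, SREBP2ΔM, WT and IRF7-deficient cells and none lower, with median log2 fold changes of 1.29, 1.30, 1.14 and 1.24. In control cells Ndufab1, the mitochondrial acyl carrier protein, rose by 1.49, Cbr4 by 1.76, Oxsm, the ketoacyl synthase, by 1.42, and Mcat, the malonyl transferase, by 1.16 on the log2 scale. Cytosolic Fasn was lower in the same libraries. Of 19 sterol synthesis genes, none was called higher and 6, 6, 6 and 5 lower, and of 9 LXR targets 5, 5, 3 and 2 were called higher and 1, 1, 3 and 3 lower. Nr1h3 and Srebf1 were in both the regulator and the LXR list, and Lpcat3 was in both the glycerolipid and the LXR list. The shares of all genes called were those given above for each genotype.

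The comparison of SREBP2ΔM with LysM-Cre control cells asked how these genes differed without SREBP2, and it used the same libraries as the RANKL comparisons. No member was called with either treatment. Fasn, Elovl6, Acaca and Acly were lower in both SREBP2ΔM libraries than in both controls with RANKL, and Fads2 was higher. With M-CSF the groups were apart for Acaca, Elovl6, Acly and Elovl5, which were lower in SREBP2ΔM cells, and for Fads2 and Fads1, which were higher. These separations are descriptions of 4 libraries each.

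With RANKL, edgeR called 0.0372% of all genes, and DESeq2 called 0 members. At an unadjusted p under 0.05 there was 1 of 9 members, Fasn, beside 3.62% of all genes, and Fasn also had a fold over 1.5, as did 1.30% of all genes in that direction. The largest difference was that of Fasn, at 34.9 and 33.4 CPM in SREBP2ΔM and 61.2 and 54.5 CPM in control cells. Both SREBP2ΔM libraries were below both controls, with a log2 fold change of -0.76 (95% interval -1.25 to -0.27, adjusted p = 0.936). Elovl6 had 2.37 and 4.20 CPM against 5.83 and 4.76 CPM (-0.68, 95% interval -1.38 to 0.03). For Fads2 the levels were 4.04 and 4.33 CPM against 2.08 and 3.29 CPM (0.62, 95% interval -0.04 to 1.28). Acaca stood at -0.45 (95% interval -0.94 to 0.05) and Acly at -0.28 (95% interval -0.57 to 0.01), while Fads1 was at -0.04. Of the 9 members, 8 had a log2 fold change below 0, beside 47.4% of all genes, and groups did not overlap for 5 of 9, beside 29.6%.

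With M-CSF, edgeR called 0.0557% of all genes and again 0 members, as did DESeq2. At an unadjusted p under 0.05 there were 3 of 9 members, beside 1.32% of all genes. Fads2 had 92.7 and 100.1 CPM in SREBP2ΔM and 53.8 and 74.9 CPM in control cells. Both SREBP2ΔM libraries were higher, with a log2 fold change of 0.58 (95% interval 0.16 to 1.00, adjusted p = 1). Fads1 had 236 and 245 CPM against 176 and 191 CPM (0.39, 95% interval 0.01 to 0.77), also without overlap. Acaca had 22.5 and 37.8 CPM against 42.9 and 46.2 CPM (-0.56, 95% interval -1.04 to -0.07). Of the members, 7 of 9 were below 0, beside 50.2% of all genes, and the groups did not overlap for 6 of 9, beside 21.8%. The adjusted p was 1 for every member with M-CSF.

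**Figure D4:**
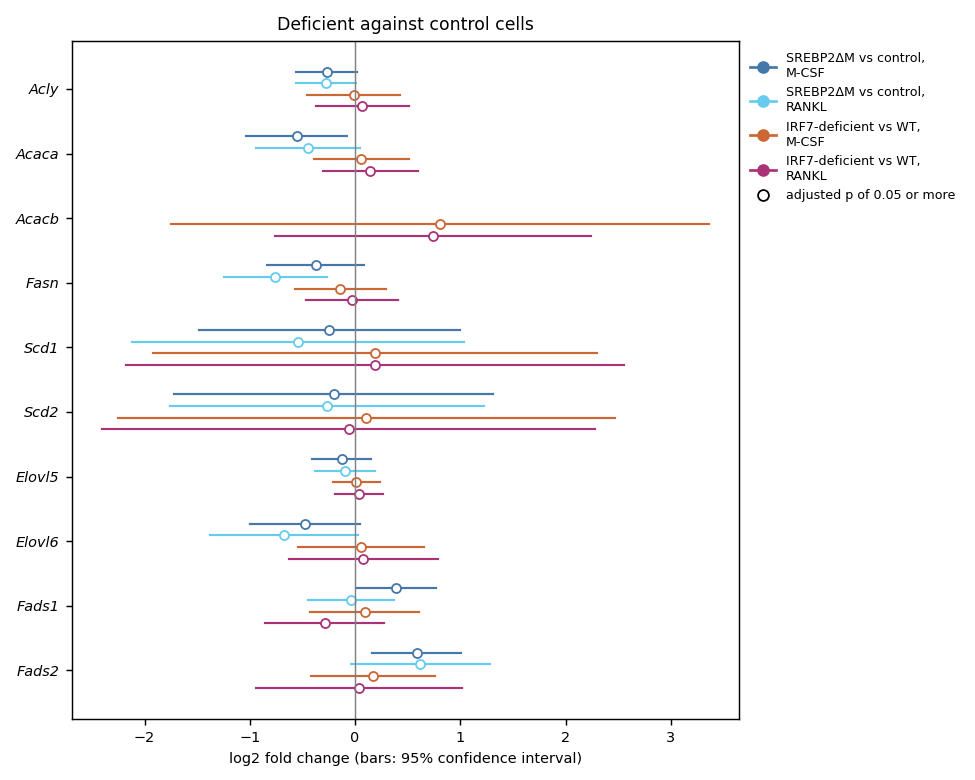
log2 fold change of the deficient against the control genotype (horizontal axis) with its 95% interval for each member, in the SREBP2 and IRF7 experiments with M-CSF and with RANKL. All points are open, since none was called, and the interval of Fasn in SREBP2ΔM cells with RANKL (-1.25 to -0.27) lies below 0.

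The sterol synthesis genes gave larger differences in the same libraries. Of 19 tested, 16 had an unadjusted p under 0.05 with either treatment, 1 was called lower with RANKL and 4 with M-CSF, and the median log2 fold change was -1.22 and -1.26. The medians of the fatty acid genes were -0.28 and -0.24. Sqle, which oxidizes squalene, was called lower with both (-3.46 and -2.45). Insig1 was not called (-0.56 and -0.82, adjusted p = 0.924 and 0.384), and Srebf1, the gene of SREBP1, had a log2 fold change of -0.04 (95% interval -0.35 to 0.27) with RANKL and 0.12 (95% interval -0.19 to 0.43) with M-CSF. In the other lists no gene was called in SREBP2ΔM cells except Srebf2 itself. The difference between the sterol and fatty acid genes was not tested.

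**Figure D5:**
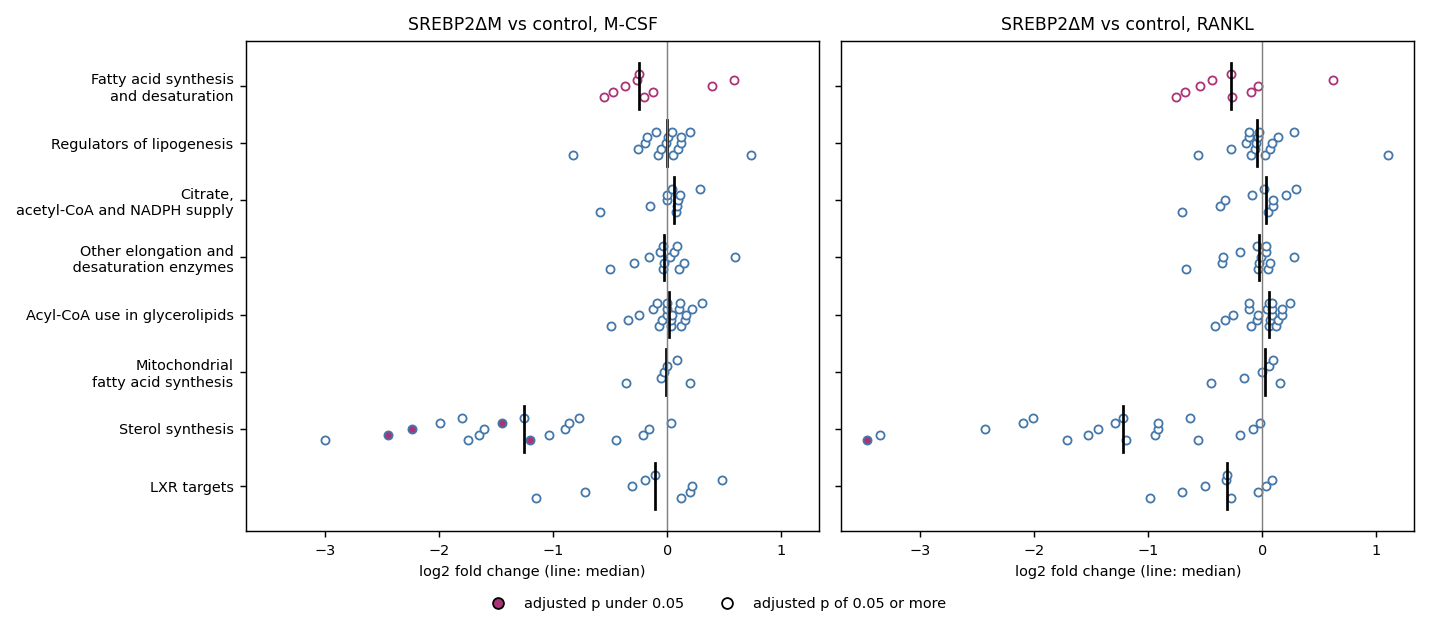
log2 fold change in SREBP2ΔM against control cells (horizontal axis) of the 9 members tested and of the genes in the other lists (rows), with M-CSF and with RANKL, each point a gene, filled where called and with a line at the median. Srebf2 is left out. Sterol synthesis genes have medians of -1.26 and -1.22, and the fatty acid genes of -0.24 and -0.28.

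IRF7-deficient cells were compared with WT cells to ask whether these genes differed without IRF7. No member was called by edgeR or DESeq2 with either treatment, and none had an unadjusted p under 0.05, where edgeR called 0.0185% of all genes with either treatment and 2.94% with RANKL and 1.31% with M-CSF had an unadjusted p under 0.05. Leaving out Acacb, the log2 fold changes ran from -0.29 (Fads1) to 0.19 (Scd1) with RANKL and from -0.14 (Fasn) to 0.19 (Scd1) with M-CSF. Acacb was at 0.74 with RANKL and 0.81 with M-CSF. It was tested only because 1 IRF7-deficient RANKL library was high, so these values are not evidence of a genotype difference. With M-CSF it had 6 and 3 counts in IRF7-deficient and 0 and 6 in WT cells. The medians over all 10 members were 0.05 and 0.08. Groups did not overlap for 0 members with RANKL, beside 22.0% of all genes, and for 1 with M-CSF, Elovl5, beside 27.5%. Elovl5 had 78.2 and 77.9 CPM in IRF7-deficient and 77.7 and 77.1 CPM in WT cells.

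Whether the RANKL response depended on genotype was tested with an interaction term. It was called for 0 members and 0 of all genes (0.00%) in either experiment, by edgeR and by DESeq2, and no member had an unadjusted p under 0.05 (1.11% of all genes in the SREBP2 and 1.12% in the IRF7 experiment). For Fads1 the interaction was -0.43 (95% interval -0.99 to 0.13) with SREBP2 genotype and -0.38 (95% interval -1.14 to 0.39) with IRF7 genotype. For Fads2 it was 0.04 (95% interval -0.70 to 0.77) and -0.13 (95% interval -1.28 to 1.02). The intervals for Scd1 and Scd2 were wider than those of the other members in both experiments, at -3.49 to 3.15 for Scd2 with IRF7 genotype.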

How the data were processed

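Poly(A) RNA of 16 libraries was sequenced from stranded libraries. Tools in the submitters' processing notes were STAR 2.7.3a, bcl2fastq 1.8.4, edgeR and fastp, with build mm10. How reads were counted, the strand setting and the annotation release were not given in the sources used here. Raw counts per gene, filtered counts, gene spans in base pairs and log2 CPM values were deposited by the authors. Summed exon lengths, used for levels per kilobase, came from a GENCODE annotation. In it the coordinates of Scd1, Scd2, Fads1 and Fads2 differ from those the authors gave. Which genes the authors kept (CPM over 3) was read from the filtered counts. No column held the authors' own comparisons.

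Each experiment (4 groups, 8 libraries) was fitted with edgeR 4.0.16 in R 4.3.3 (TMM scaling, robust quasi-likelihood, residual df 4, Benjamini-Hochberg over all kept genes, call at adjusted p under 0.05). With 2 against 2 libraries, an exact permutation test cannot go below p = 0.333. Intervals are 95% and use the test's df. Groups "apart" have both libraries beyond both of the other group. Depth was 7703178 to 13387849 counts per library, where 1 count is 0.0708 to 0.139 CPM in the SREBP2 experiment.

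All 10 members are named, with up to 4 genes per list by smallest p; neighbours of Fads2 were chosen by position, and Insig1 as a gene whose level resembled Acly. Members were matched by gene name alone, but the choice of the members and lists was made with earlier results of these data known. Alternatives were DESeq2 1.42.0 size factors and Wald test, other filters on low counts, only the groups compared, a replicate block, and each library left out. A left-out library leaves 1 in its group, which is assumed to vary like the others. Promoters are RefSeq's on GRCm38.p6. Tests were checked on simulated counts.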

Additional observations from a re-analysis of the deposited data

How the results depend on the processing

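With 2 libraries per group, small differences were hard to detect: the 95% interval of Fads2 between SREBP2ΔM and control cells with RANKL spanned -0.04 to 1.28 on the log2 scale. Members called numbered 4 to 7 in each RANKL comparison under all alternatives, against 5. With no filter on low counts, 1 member was called in SREBP2ΔM cells with RANKL instead of 0, Fasn at -0.75 (adjusted p = 0.00168), and Scd2 was called in all 4 RANKL comparisons. The test then had 85988 degrees of freedom, so that a gene's own replicate spread had almost no weight. Under the same setting Fasn in IRF7-deficient against WT cells with RANKL was 0.0062, not called.

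Replicate numbers were shared between groups, but the labels did not state a pairing, and with 2 pairs the correlations of deviations ran from 0.057 to 0.721. With a replicate block, 5, 4, 5 and 5 members were called with RANKL in control, SREBP2ΔM, WT and IRF7-deficient cells, Acly being lost in SREBP2ΔM cells (adjusted p = 0.0546), and 0 between genotypes. Fads2 in IRF7-deficient against WT cells with RANKL was then -0.0015.

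Leaving out single libraries left 4 to 5 members called with RANKL and 0 between genotypes. It turned the direction of these uncalled values. With RANKL against M-CSF the ranges were -0.47 to 0.28 for Acaca in SREBP2ΔM, -0.084 to 0.36 for Acly, -3.26 to 0.072 for Scd1 and -0.93 to 2.09 for Scd2 in WT, and -0.41 to 0.12 for Acaca and -0.92 to 1.89 for Scd2 in IRF7-deficient cells. In SREBP2ΔM against control they were -0.90 to 0.45 for Scd1 and -0.62 to 0.39 for Scd2 with M-CSF, and -0.22 to 0.018 for Elovl5, -0.29 to 0.19 for Fads1 and -0.98 to 0.41 for Scd2 with RANKL. In IRF7-deficient against WT with M-CSF they were -0.18 to 0.13 for Acly, -0.040 to 0.17 for Acaca, -0.18 to 5.28 for Acacb, -0.32 to 0.075 for Fasn, -0.17 to 0.48 for Scd1, -0.19 to 0.48 for Scd2, -0.25 to 0.35 for Elovl6, -0.12 to 0.27 for Fads1 and -0.077 to 0.37 for Fads2. With RANKL they were -0.14 to 0.31 for Acly, -0.14 to 0.39 for Acaca, -0.19 to 0.15 for Fasn, -1.59 to 2.53 for Scd1, -2.07 to 2.12 for Scd2, -0.0089 to 0.082 for Elovl5, -0.18 to 0.30 for Elovl6, -0.56 to 0.085 for Fads1 and -0.70 to 0.54 for Fads2. For these ranges and the other changes the cause was not tested.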

Other observations

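For 9 members, the genes outside the list with the most similar pattern were looked up among 10598 genes kept in both experiments, by Pearson's r of log2 CPM centred within each experiment over the 16 libraries. The libraries fall into M-CSF and RANKL cultures and share scaling, so r mostly follows that split for genes with a large RANKL response, and it is given as a description. Fads1 was closest to Glrx (r = 0.994), a glutaredoxin, and Fads2 to Bcl2l1 (0.992), which encodes the survival protein BCL-XL. Elovl6 was closest to Mphosph8 (0.986), with Pla2g4a, the cytosolic phospholipase A2 that releases arachidonic acid, next (0.979). Fasn was closest to Piwil2 (0.954) and Elovl5 to Kctd17 (0.943).

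Acly and Acaca resembled genes of sterol metabolism. Closest to Acly were Insig1 (r = 0.943), Acss2 (0.932), a cytosolic acetyl-CoA synthetase, and Lss (0.930), the lanosterol synthase. Acaca was closest to Idi1 (0.873), the isopentenyl diphosphate isomerase. Scd2 was closest to Dop1b (0.932) and Scd1 to Kif21b (0.928).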
